A study of Mus musculus with 2 samples.

Results

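Heterogeneous nuclear ribonucleoproteins (hnRNPs) are RNA-binding proteins that coat nascent transcripts in the nucleus and take part in splicing, export, translation and RNA decay. Several of them bind their own pre-mRNA. They then favour isoforms that keep an intron or carry an early stop codon, which leaves less productive mRNA. Embryonic stem cells make these proteins in large amounts.

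The transcripts described here belong to 10 hnRNP genes: Hnrnpa1, Hnrnpa2b1, Hnrnpc, Hnrnpd, Hnrnpdl, Hnrnph1, Hnrnpk, Hnrnpl, Hnrnpm and Hnrnpu. They were chosen by gene symbol alone, with transcripts of every biotype in GENCODE M21 on GRCm38. The deposited table listed 104 of their 138 annotated transcripts, among 121429 transcripts in all. Of the 104, 44 were annotated as protein-coding, 13 as targets of nonsense-mediated decay, 29 as retained intron and 18 as processed transcript, a noncoding class without an open reading frame. The other 34 had no row: 13 of Hnrnpk, 11 of Hnrnpc, 7 of Hnrnpm and 3 of Hnrnpa1. The study names an Ensembl annotation and not GENCODE M21 as its reference, so a missing row does not show that an isoform was undetected. All 104 had a mean exon value above 1 and above 10.

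The data came from wild-type, feeder-depleted DTCM23/49 XY mouse embryonic stem cells, a single line, given 200 µM 4-thiouridine (4sU) for 10 min. 4sU is a uridine analogue that enters RNA made during the pulse. RNA carrying it was biotinylated and pulled down on streptavidin beads, which gave the labeled pool, and RNA left in the supernatant gave the unlabeled pool. Each pool was 1 library of replicate 1, and the labels name the second pool both preexisting and total RNA. There was therefore no replicate and no test: every value below describes these 2 libraries, and the count of transcripts is not a count of replicates. All 10 embryonic stem cell markers examined, among them Pou5f1, Nanog and Sox2, had unlabeled exon values between 72.9 and 3453. Of 6 fibroblast feeder markers, Thy1 reached 14.5 and Col3a1 and Lum were listed at 0. Of 5 endoderm markers none exceeded 2.49, and of 4 neuroectoderm and mesoderm markers Pax6 alone exceeded 10, at 26.7.

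Each transcript had an exon value and, where it was spliced, an intron value in each pool, both per length and relative to a fixed column total. The values are called TPM by the authors, but each column summed to 10 times a TPM total, and they are called exon and intron values here. Depth is unknown, so counting error could not be given. Because both columns have the same total, a labeled to unlabeled ratio is relative to all other RNA, and the amounts of RNA in the pools cannot be told apart from it. Isoforms of a gene share exons, and shared reads were divided among them by an estimate whose error the table does not hold. Isoforms are therefore not independent measurements, and summed values were used for ratios only.

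The exon sum of a gene over its isoforms gave a log2 labeled to unlabeled ratio between -1.17 and 0.26 across the 10 genes. The median log2 ratio was -0.62, against -0.17 over 14463 genes (quartiles -0.85 and 0.70). Hnrnpd, Hnrnpl and Hnrnpk were at least 2-fold lower in labeled RNA. That is 3 of 10, where 20.1% of all genes were at least 2-fold lower, and 0 of 10 were at least 2-fold higher, where 19.2% of all genes were. The lower count depended on the scale. With exon rows alone as the scale it was 1 of 10 (15.8% of all genes), since Hnrnpl and Hnrnpk came to -0.99 and -0.98. With leakage of unlabeled RNA into the labeled pool subtracted it was 5 of 10 (32.8% of all genes), with Hnrnpu at -1.21 and Hnrnpc at -1.03.

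Among the core proteins that package nascent RNA, Hnrnpa1 (chr15:103240432-103246692, plus strand), which antagonises splice site use and shuttles to the cytoplasm, had 2 listed coding isoforms. The leading one, Hnrnpa1-202, had exon values of 2299.9 in labeled and 3431 in unlabeled RNA, a log2 ratio of -0.58. The other was almost the same at -0.57, so the gene had the smallest spread among its isoforms of the 10. Of the 50-base words in Hnrnpa1-202, 54.1% also occur in annotated transcripts of 20 other genes, led by Gm10052, and its values could hold reads from those.

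Hnrnpa2b1 (chr6:51460932-51469894, minus strand), whose products bind purine-rich RNA and are known for sorting and transport of RNA, was nearly even between the pools. Its leading coding isoform, Hnrnpa2b1-210, had exon values of 2045 labeled and 2203 unlabeled, and the gene sum had a log2 ratio of 0.05, which turned to -0.17 with leakage subtracted and to -0.01 with coding isoforms only. Its isoforms were far from uniform. Hnrnpa2b1-212, a retained intron isoform, had 679 labeled and 116 unlabeled, and its log2 ratio of 2.55 was the highest of all 104 transcripts. The leading retained intron isoform, Hnrnpa2b1-208, had 2499 and 2678 and was level with the coding isoforms at -0.10.

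Hnrnpc (chr14:52073377-52104028, minus strand) encodes the C proteins, which bind uridine tracts and stay in the nucleus. The listed isoforms, both coding, had log2 ratios of -0.63 and -0.69. The leading one, Hnrnpc-202, had 240 labeled and 386 unlabeled.

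Hnrnpd and Hnrnpdl encode related proteins, and Hnrnpd is known as AUF1, a factor that binds AU-rich elements and promotes mRNA decay. By the sum over all isoforms they lay at opposite ends of the order of the 10 genes. Hnrnpd (chr5:99955935-99978938, minus strand) had a log2 ratio of -1.17, and all 11 of its isoforms lay between -1.47 and -0.86. Its leading coding isoform, Hnrnpd-210, had 319 labeled and 885 unlabeled. Hnrnpdl (chr5:100033577-100039664, minus strand) had 0.26, the highest of the 10 gene ratios. Its leading coding isoform, Hnrnpdl-207, had 296 labeled and 252 unlabeled, while the complete coding isoform without the kept intron, Hnrnpdl-202, had 230 and 258. With coding isoforms only, the gene ratios were -1.14 for Hnrnpd and 0.04 for Hnrnpdl, still the highest, while Hnrnpl was lowest at -1.35.

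Hnrnph1, Hnrnpl and Hnrnpm encode splicing regulators that bind G tracts, CA repeats and GU-rich RNA. Hnrnph1 (chr11:50376990-50386528, plus strand) had 880 labeled and 1339 unlabeled in its leading coding isoform, Hnrnph1-201, and 15 of its 18 isoforms were processed transcripts. The leading one of those, Hnrnph1-212, had 1509 and 2426. Hnrnpl (chr7:28808541-28822266, plus strand) had the widest spread, with log2 ratios from -2.07 to 1.66. The lowest ratios of the 104 were all of Hnrnpl: Hnrnpl-203 (32.3 labeled, 135 unlabeled, log2 -2.07), Hnrnpl-208 (115 and 445, -1.95) and Hnrnpl-204, its leading coding isoform (166.5 and 569, -1.77). Hnrnpm (chr17:33646233-33686860, minus strand) was near even, at -0.09 (0.06 with exon rows alone as the scale), and its leading coding isoform, Hnrnpm-204, had 777 labeled and 706 unlabeled.

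Hnrnpk (chr13:58391142-58403343, minus strand) encodes a KH domain protein that binds cytidine-rich RNA and DNA, and had 21 listed isoforms. Its leading coding isoform, Hnrnpk-213, had 631 labeled and 1751.5 unlabeled, a log2 ratio of -1.47. Of the 50-base words of its complete coding isoform Hnrnpk-201, 40.6% occur in transcripts of 3 other genes. Hnrnpu (chr1:178321108-178337797, minus strand) encodes a scaffold attachment factor that binds RNA and chromatin. Its only coding isoform, Hnrnpu-201, had 376 labeled and 731 unlabeled, a log2 ratio of -0.96.

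**Figure D1:**
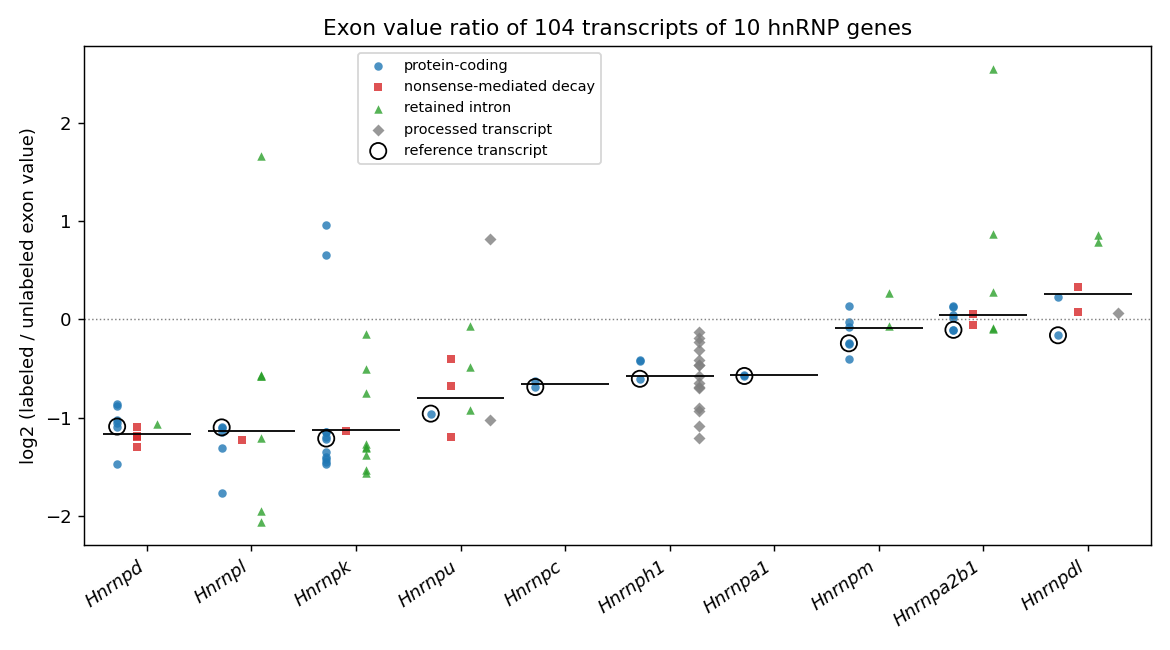
Each point is 1 of 104 transcripts, placed by gene and coloured by biotype, with the log2 ratio of labeled to unlabeled exon value on the vertical axis. The black bar is the ratio of the gene sum and the circle marks the reference coding transcript. Hnrnpd, Hnrnpl and Hnrnpk lay lowest by gene sum, and Hnrnpa2b1-212 stood highest at 2.55.

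The levels of the leading coding isoforms, which are per length, ran from the Hnrnpa1 isoform at a mean of 2865 over the pools to the Hnrnpdl isoform at 274. In a list of 22 other hnRNP and related genes, such as the polypyrimidine tract binding proteins and the poly(C) binding proteins, the median log2 ratio was -0.92, against -0.17 over all genes. In that list 10 genes were at least 2-fold lower in labeled RNA, where 20.1% of all genes were, and 0 were at least 2-fold higher, where 19.2% of all genes were. Hnrnpul1 (167 labeled, 566 unlabeled, -1.77) and Ptbp3 (728 and 2442, -1.75) were lowest. Rbmx (897 and 634, 0.50) and Hnrnph3 (1053 and 608, 0.79) were highest.

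The biotypes of the 10 genes were then compared. Coding isoforms had a median log2 ratio of -0.66 (all coding transcripts -0.38), isoforms annotated for nonsense-mediated decay -1.09 (all -0.35), retained intron isoforms -0.57 (all 0.16) and processed transcripts -0.52 (all -0.10). The median was thus below that of all transcripts of the same biotype in each of the 4, and the gap was widest for nonsense-mediated decay and retained intron isoforms. These backgrounds were not matched for abundance: the median mean exon value was 482 over the hnRNP isoforms and 20.6 over all transcripts. The part of abundance in the gaps was not tested. At least 2-fold lower in labeled RNA were 18 of 44 coding isoforms (26.5% of all coding transcripts), 7 of 13 nonsense-mediated decay isoforms (25.7%), 10 of 29 retained intron isoforms (18.5%) and 3 of 18 processed transcripts (24.2%). At least 2-fold higher were 2 of 29 retained intron isoforms, where 29.7% of all such transcripts were, and 0 of the coding isoforms (15% of all), nonsense-mediated decay isoforms (15.2%) and processed transcripts (24.9%).

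These pooled medians mix genes, since the nonsense-mediated decay isoforms are spread unevenly over the genes: 4 of the 13 were of Hnrnpd and 3 of Hnrnpu, with coding ratios of -1.14 and -0.96, while Hnrnpa2b1 and Hnrnpdl, the genes with the highest coding sums by log2 ratio, had 2 each and Hnrnpk and Hnrnpl 1 each. Within a gene the sums of each noncoding biotype were therefore set against the coding sum. Nonsense-mediated decay isoforms were above the coding isoforms in 4 of 6 genes (47.2% of all genes with both), with a median difference of 0.06 on the log2 scale and a range of -0.07 to 0.13. By these sums they were thus close to the coding isoforms of their own genes, in both directions. Retained intron isoforms were above in 6 of 7 genes (70% of all), with a median difference of 0.25 against 0.32 over 5111 genes. The exception was Hnrnpk, at -0.14, and the widest difference was in Hnrnpdl, at 0.77. Processed transcripts were above in 2 of 3 genes (58% of all), with a median difference of 0.02.

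Set against the leading coding isoform alone, the leading isoforms of each biotype gave smaller or opposite median differences for retained intron isoforms and processed transcripts. The median was 0.03 for retained intron isoforms, which were above in 5 of 7 genes, and -0.08 for processed transcripts, which were above in 0 of 3. It was 0.11 for nonsense-mediated decay isoforms, above in 4 of 6. Among retained intron isoforms only Hnrnpl changed sign. Its sum was 0.42 above the coding sum, while Hnrnpl-208 was 0.18 below Hnrnpl-204 (log2 difference -0.18). For nonsense-mediated decay isoforms Hnrnpd and Hnrnpk went from -0.05 and -0.07 by sums to 0.17 and 0.33. Hnrnpdl and Hnrnpu went from 0.13 and 0.13 to -0.16 and -0.24, and the range over genes widened to between -0.24 and 0.54. In Hnrnpd, Hnrnpdl, Hnrnpk, Hnrnpl and Hnrnpm the leading coding isoform is annotated as incomplete. Against the complete coding isoform with the highest mean exon value, the log2 differences of Hnrnpd-204, Hnrnpl-213 and Hnrnpu-206 were -0.21, -0.13 and -0.24. Those of Hnrnpa2b1-207, Hnrnpdl-205 and Hnrnpk-203 were 0.05, 0.23 and 0.08. Processed transcripts of Hnrnpdl and Hnrnpu went from 0.02 and 0.15 to -0.16 and -0.06. The leading nonsense-mediated decay isoforms were Hnrnpd-204 (629 labeled, 1553 unlabeled), Hnrnpu-206 (690.3 and 1588), Hnrnpa2b1-207 (959 and 1001), Hnrnpk-203 (477 and 1049.9), Hnrnpdl-205 (227 and 216) and Hnrnpl-213 (97.7 and 229). The labeled value exceeded the unlabeled one only in Hnrnpdl-205 among these 6. The leading retained intron isoforms outside Hnrnpa2b1 and Hnrnpl were Hnrnpd-206 (261 and 546), Hnrnpdl-204 (247 and 143), Hnrnpk-215 (573 and 1653), Hnrnpm-208 (89.7 and 74.3) and Hnrnpu-204 (652 and 1238). Of these 5, those of Hnrnpdl and Hnrnpm had the higher value in labeled RNA. The leading processed transcripts of Hnrnpdl and Hnrnpu were Hnrnpdl-203 (242 and 231) and Hnrnpu-203 (1061 and 2156).

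The share of a gene's summed exon value in noncoding isoforms was higher in labeled RNA in 5 of 8 genes and lower in 3. This share was not computed over all genes, so the count does not set the hnRNP genes apart. The share was 58.8% labeled against 52.3% unlabeled in Hnrnpl and 67.7% against 62.4% in Hnrnpdl, the widest gaps upward. It was 43.3% against 45.6% in Hnrnpk, the widest gap downward.

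The retained intron label covers isoforms that differ widely in how much intron they hold. For each gene the complete coding isoform with the highest mean exon value was taken as the reference, and the share of an isoform's exon bases that lie in introns of the reference was computed. Of 18 isoforms with at least 50% of their exon bases in reference introns, 17 had a higher labeled to unlabeled ratio than their reference (78.3% of 7345 such transcripts in the table). Their median log2 difference from the reference was 0.52, against 0.90 over all such transcripts. With 10 to 50% of bases in reference introns 16 of 34 were above (56.1% of all), and with under 10% 26 of 42 were (55.2%). The class under 10% also takes in isoforms that lie largely beyond the ends of the reference. Among them were Hnrnpu-205 (100% of exon bases beyond), Hnrnpd-211 (74.6%) and Hnrnpa2b1-211 (72.7%). The 18 isoforms with at least 50% came from 7 genes and shared introns within a gene, so they are not 18 separate cases. Their intron-derived bases are also part of unspliced RNA of the reference. The intron values of these references had log2 ratios from 1.04 (Hnrnpl-202) to 2.80 (Hnrnpa2b1-210). In those bases an isoform and unspliced RNA cannot be told apart, and the part of unspliced RNA in the isoform ratios was not tested.

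The biotype label did not follow the share of bases in reference introns closely. The 18 included 13 retained intron isoforms, 4 processed transcripts of Hnrnph1 and 1 coding isoform, Hnrnpk-210, which had 516 labeled and 266 unlabeled against 553 and 1283 in the reference Hnrnpk-201. Hnrnpk-219, a coding isoform just under the limit with 46.4% of its bases in reference introns, had 607 and 385; it was picked out after its values were seen. Conversely, 16 of the 29 retained intron isoforms had under 50%. Across the 29 retained intron isoforms Spearman's rho between intron share and log2 difference from the reference was 0.56, against 0.41 over 12143 retained intron transcripts. These are descriptions across transcripts that share a library and, within a gene, exons.

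**Figure D2:**
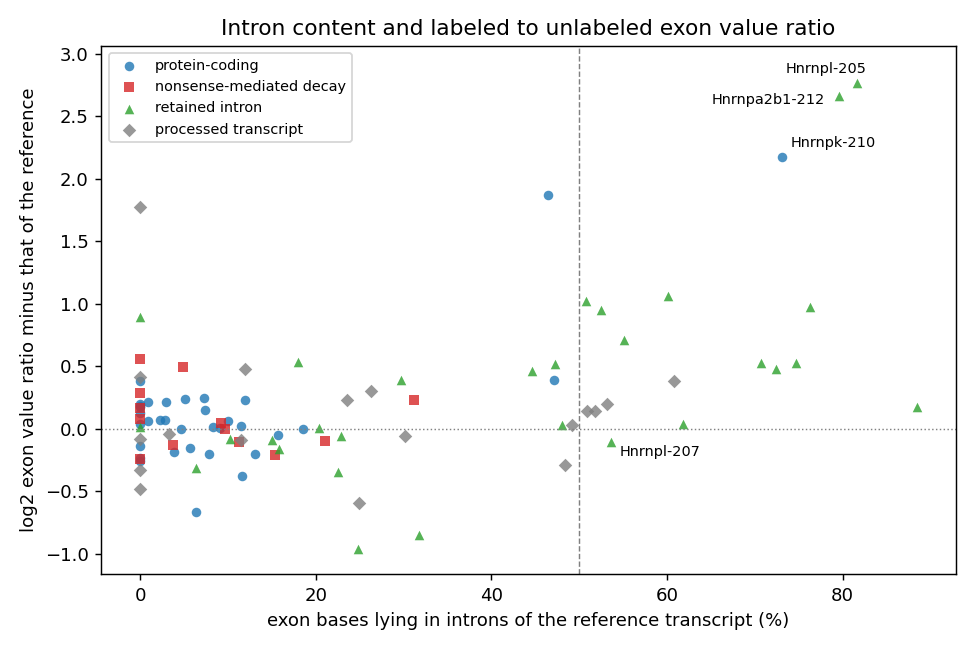
The horizontal axis is the percentage of an isoform's exon bases that lie in introns of the reference coding transcript, and the vertical axis is its log2 labeled to unlabeled exon ratio minus that of the reference, for 94 isoforms coloured by biotype. To the right of the dashed line at 50%, all points but Hnrnpl-207 lie above 0, while those at the left lie on both sides.

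The splice sites that such isoforms run through are shown because they mark which intron is kept, in part or whole. They are from GENCODE M21 transcripts on GRCm38, written 5′ to 3′ on the strand of the gene. A 5′ site shows 9 exon and 21 intron bases and a 3′ site 25 intron and 5 exon bases, with the terminal intron dinucleotide in capitals. The first 5 belong to isoforms far above their reference, in intron 7 of Hnrnpa2b1 (chr6:51464212-51465178), intron 5 of Hnrnpk (chr13:58396900-58397752), intron 6 of Hnrnpl (chr7:28815353-28818460) and intron 8 of Hnrnpk (chr13:58395294-58395573). Hnrnpa2b1-212 holds 547 of the 967 bases of its intron, Hnrnpk-210 716 of 853 and Hnrnpl-205 627 of 3108. Only Hnrnpk-207 among these keeps its intron whole. The other 4 belong to isoforms of Hnrnpk that keep intron 12 (chr13:58393869-58394075) or intron 13 (chr13:58393775-58393852) and lay below their reference.
Hnrnpa2b1-212, intron 7, 5′ site: gacctggagGTtagttttaattaaattttg
Hnrnpk-210, intron 5, 5′ site: ccccgagcgGTatgtcccaacagtttatgc
Hnrnpl-205, intron 6, 3′ site: tcctaactctgttttcaatctacAGgtgac
Hnrnpk-207, intron 8, 5′ site: cttcgagaaGTaagagattattttgttctg
Hnrnpk-207, intron 8, 3′ site: gttttctcttttgtaaatgttatAGaacac
Hnrnpk-206, intron 12, 5′ site: gaaccacagGTtgagtatcaataatgttaa
Hnrnpk-206, intron 12, 3′ site: gtaattttttttcttttgtttttAGggtgg
Hnrnpk-217, intron 13, 5′ site: ctggatatgGTaagtttcttctttttgaaa
Hnrnpk-217, intron 13, 3′ site: acttgctgctcattatttaaatcAGactat

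Hnrnpk thus held both patterns. Hnrnpk-207, with 60.1% of its bases in reference introns, had 439 labeled and 488 unlabeled, 1.06 above its reference on the log2 scale. Hnrnpk-206 had 538 and 1329 and Hnrnpk-217 had 504 and 1310, which is 0.09 and 0.17 below the reference, and intron made up 15.0% and 15.8% of their exon bases. Most bases of these isoforms lie outside the reference introns, and how reads shared with the coding isoforms were divided is not in the table. What the kept intron itself did in these isoforms was not tested.

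Across the 10 genes, 19 isoforms held 16 reference introns whole, and all 16 began with GT and ended with AG. Their median length was 202 bases, against 458 over the 108 introns of the 10 references, which describes the annotation and not these libraries. Intron 6 of Hnrnpdl (chr5:100036196-100036480, minus strand), 285 bases, is given whole, with its terminal dinucleotides in capitals, because both retained intron isoforms of the gene keep it.
Hnrnpdl, intron 6: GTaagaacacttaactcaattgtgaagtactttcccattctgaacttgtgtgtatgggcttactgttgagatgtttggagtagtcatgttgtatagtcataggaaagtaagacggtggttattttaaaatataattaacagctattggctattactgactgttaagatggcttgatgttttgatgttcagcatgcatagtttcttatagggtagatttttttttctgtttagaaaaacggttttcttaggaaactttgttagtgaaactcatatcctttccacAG
Hnrnpdl-204 had exon values of 247 labeled and 143 unlabeled and Hnrnpdl-206 had 209 and 115. Both were about 1 log2 unit above the reference Hnrnpdl-202, by 0.95 and 1.02. Hnrnpdl-207, a coding isoform, keeps intron 7 instead, which lies past the stop codon, and was 0.39 above it. Unspliced RNA of Hnrnpdl-202 holds these introns too, and its part in these values was not tested.

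Hnrnpl is known to regulate itself through a poison exon, an exon with an early stop codon, in its intron 6. That intron, 3108 bases long, held most of the intron-derived bases of Hnrnpl-205, Hnrnpl-206 and Hnrnpl-212. Hnrnpl-206 (194 labeled, 289 unlabeled) and Hnrnpl-212 (181 and 271) run from the exon into its 5′ part and were 0.53 and 0.52 above the reference. Hnrnpl-205 (61.55 labeled, 19.5 unlabeled), which covers its 3′ end, was 2.76 above it. The 3 isoforms thus gave unequal ratios for one intron. Unspliced RNA of the reference holds this intron too, and its part in these values was not tested.

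The annotated poison exon, chr7:28817335-28817404 on the plus strand, is shown with its stop codon in capitals because it lies whole inside intron 6 and is part of Hnrnpl-213 and Hnrnpl-207.
Hnrnpl-213, exon of 70 bases: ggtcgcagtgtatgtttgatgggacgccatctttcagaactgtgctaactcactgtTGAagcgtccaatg
Hnrnpl-213 was 0.13 below the reference, and Hnrnpl-207 (59.6 labeled, 137 unlabeled) was 0.10 below it. Hnrnpl-207 was the 1 intron-rich isoform of the 18 that did not exceed its reference. Its exon runs through the end of intron 4, where the annotation gives AC in place of AG, as in the rare AT-AC class of introns.
Hnrnpl-207, intron 4, 3′ site: gttctgcttccttaagtcttctcACgtttg

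**Figure D3:**
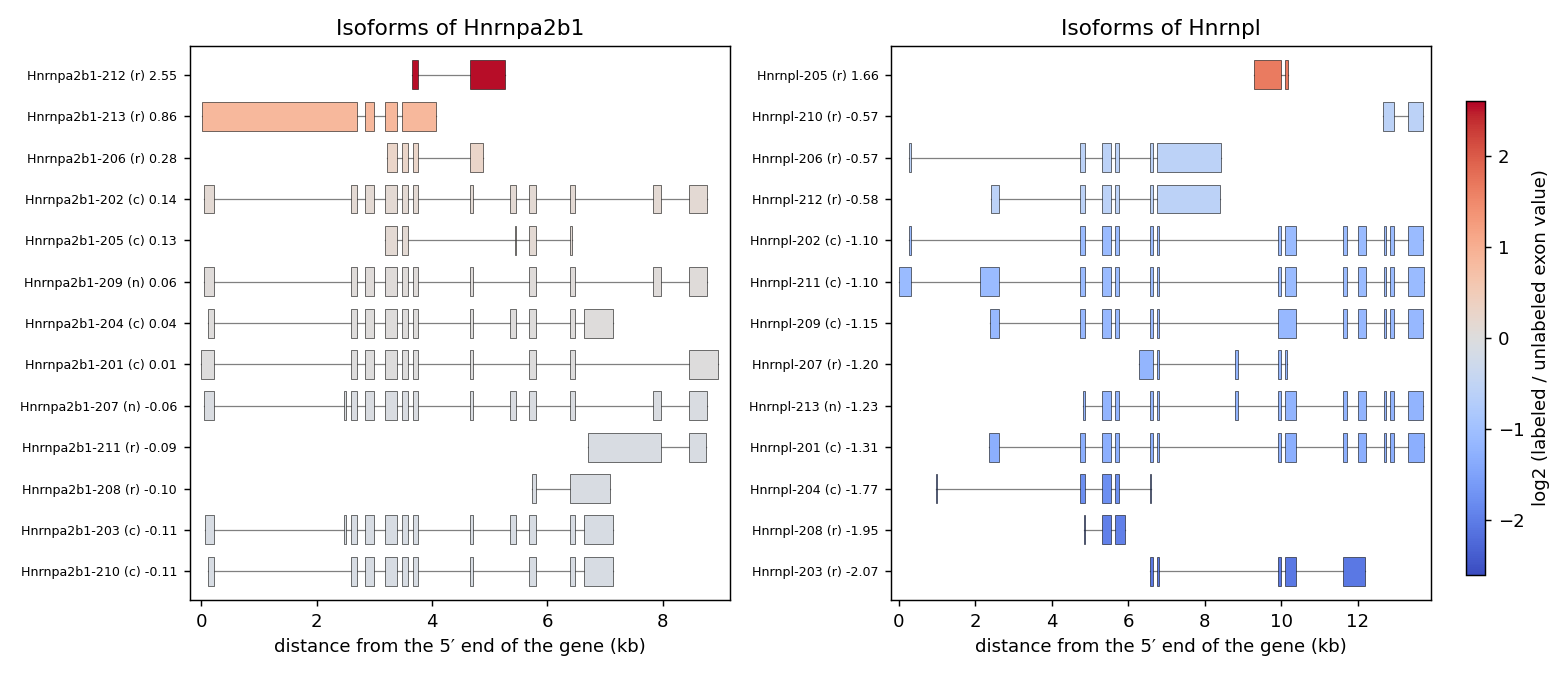
Exons (boxes) and introns (lines) of the isoforms of Hnrnpa2b1 and Hnrnpl by distance in kb from the 5′ end of the gene, ordered and coloured by log2 labeled to unlabeled exon ratio, which is printed beside each name with its biotype (c, coding; n, nonsense-mediated decay; r, retained intron). Hnrnpa2b1-212, at 2.55, and Hnrnpl-205, at 1.66, lie at the top. Hnrnpl-207, with 53.6% of its exon bases in reference introns, lies at -1.20, below the reference Hnrnpl-202 at -1.10.

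A transcript is a likely target of nonsense-mediated decay when its stop codon lies more than about 50 bases before the last exon junction. All 13 isoforms with that annotation met this, with distances of 101 to 860 bases, and of 35 coding isoforms with an annotated stop only Hnrnpa2b1-202 did, at 157. The label and the stop codon both come from the annotation, so this describes the annotation and not these libraries. The 13 isoforms reached that distance in different ways. In 6 of the 13 the stop codon was that of the reference and a junction had been added after it. In Hnrnpl-213 and Hnrnpdl-205 the stop lay in a reference intron. The stops are shown with 15 bases before and 9 after and the stop codon in capitals, to set those shared with the reference beside those that are not. They lie at chr5:99962545-99962547, chr6:51463432-51463434, chr5:100038593-100038595 and chr13:58396879-58396881, all on the minus strand.
Hnrnpd-204, Hnrnpd-208 and Hnrnpd-209, stop of the reference: agctacaaaccatacTAAattattcca
Hnrnpa2b1-207 and Hnrnpa2b1-209, stop of the reference: ggaaggagcagatatTAAgcttcttcc
Hnrnpdl-205, stop in a reference intron: cccgctggaccccagTAGccttcccca
Hnrnpk-203, another stop within a reference exon: actgagtatcagtgcTGAtattgagac
The isoforms with the reference stop had log2 ratios of -1.30, -1.20 and -1.09 in Hnrnpd, -0.06 and 0.06 in Hnrnpa2b1 and 0.33 in Hnrnpdl-201. These followed the gene more than the class, since the coding sums of the genes were at -1.14, -0.01 and 0.04. Hnrnpdl-201 alone stood more than 0.2 above its coding sum.

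Some ratios rested on other features of the annotation. Hnrnpu-205, a processed transcript that was picked out after its values were seen, had 253 labeled and 144 unlabeled, 1.77 above the reference on the log2 scale. All of its exon bases lie beyond the 3′ end of the reference Hnrnpu-201, and 804 of them lie in exons of Cox20 on the opposite strand. The Cox20 transcripts had log2 ratios of 2.33 and 1.05, and their part in the Hnrnpu-205 values was not tested. Hnrnpd, Hnrnpk, Hnrnpl and Hnrnpm also overlap other annotated genes. Apart from Hnrnpa1 and Hnrnpk, the references shared at most 20.8% of their 50-base words with another gene (Hnrnpd with Gm17092), and those of Hnrnpm and Hnrnpu shared none.

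The intron to exon ratio of a transcript compares unspliced with all RNA of that transcript in a pool. Coding isoforms had a median of 0.317 in labeled and 0.0382 in unlabeled RNA, against 0.570 and 0.111 over all coding transcripts. The nonsense-mediated decay isoforms had 0.326 and 0.213 (all 0.646 and 0.140), the retained intron isoforms 0.333 and 0.0457 (all 0.567 and 0.140) and the processed transcripts 0.266 and 0.0510 (all 0.717 and 0.175). The labeled medians of the 4 biotypes were thus alike and below those of all transcripts, and the unlabeled median stood out in nonsense-mediated decay isoforms. The sets of all transcripts were not matched for abundance here either.

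The unlabeled ratios also differed by annotation. In 12 isoforms of all biotypes at least 5% of the intron bases lie in exons of the reference, and these had a median unlabeled ratio of 0.317, against 0.0395 in the 87 others (over all transcripts, 0.307 against 0.119). Of the 13 nonsense-mediated decay isoforms, 5 were among the 12, with a median of 0.345, against 0.0342 in the other 8. The annotation did not part the 13 cleanly, since Hnrnpdl-201 (0.633), Hnrnpdl-205 (0.326) and Hnrnpl-213 (0.213) had no intron bases in reference exons, and Spearman's rho over the 13 was 0.19. The 5 included those of Hnrnpu, whose introns span much of the long last exon of Hnrnpu-201 (42.3% of intron bases in Hnrnpu-206, 71.6% in Hnrnpu-208, 88.4% in Hnrnpu-209). Hnrnpa2b1-207 and Hnrnpa2b1-209, at 7.05% and 6.89%, had unlabeled ratios of 0.345 and 0.477, where the reference Hnrnpa2b1-210 had 0.0127. In these isoforms spliced RNA of another isoform and unspliced RNA cannot be told apart.

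Under a model in which introns are removed at a processing rate and mature RNA decays at a degradation rate, the labeled ratio must lie below 1 and above the unlabeled ratio. Of the 99 transcripts with all values above 0, 84 met this (62.3% of all transcripts did): 42 of 44 coding, 9 of 13 nonsense-mediated decay, 17 of 24 retained intron and 16 of 18 processed transcripts, where 66.7%, 62.2%, 63.1% and 53.8% of all did. The hnRNP transcripts were more abundant than most, with a median mean exon value of 482 against 20.6 over all. Among all transcripts the share that met the model was 77.9% with a mean exon value above 10 and 94.2% above 100. The share of hnRNP transcripts lay between these. As their median of 482 was above 100, 94.2% is the nearer background, and the hnRNP share was below it. The part of abundance in the hnRNP count was not tested. Of the rest, 9 had a labeled ratio of 1 or more (30.9% of all), and in 6 the unlabeled ratio was at least as high as the labeled one. Over all transcripts that last share was 10.7%, which includes some with a labeled ratio of 1 or more. Without those it was 3684 of 54122. Among the 9 were 4 of the 7 isoforms of Hnrnpdl and none of Hnrnpa1, Hnrnpa2b1, Hnrnpc, Hnrnpk or Hnrnpu.

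**Figure D4:**
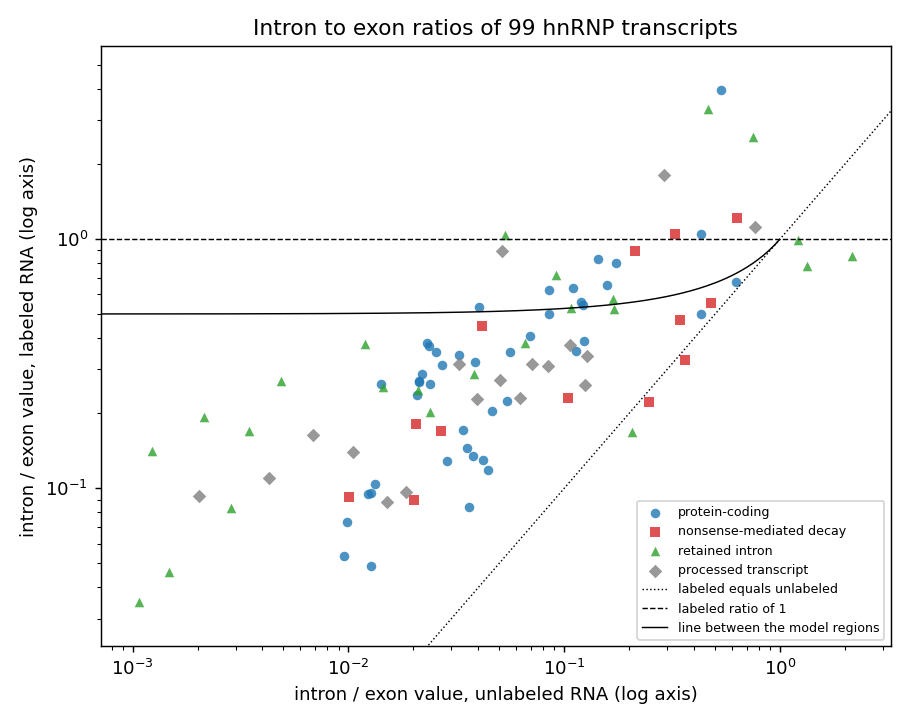
Intron to exon ratio of 99 hnRNP transcripts in unlabeled RNA (horizontal) and labeled RNA (vertical), both on log axes, coloured by biotype. Points under the dashed line and above the dotted diagonal are compatible with the model, 84 of 99, and the solid curve parts the region with 1 solution, above it, from that with 2 or none.

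For the leading coding isoform of each gene the rates were solved from the ratio pair. In Hnrnpd, Hnrnpdl, Hnrnpk, Hnrnpl and Hnrnpm that isoform is annotated as incomplete. Hnrnpc-202 had 2 solutions, of which the one with the higher ratio of processing to degradation rate was kept. Hnrnpdl-207 had 1, while in the other 8 no exact solution existed and the closest approach of the equations was used. The half-lives, as a description of this fit, were 86.6 min for Hnrnpa1-202, 60.3 min for Hnrnpm-204, 54.2 min for Hnrnpk-213, 42.9 min for Hnrnpa2b1-210 and 36.3 min for Hnrnph1-201. They were 13.7 min for Hnrnpdl-207, 12.2 min for Hnrnpl-204, 10.4 min for Hnrnpu-201, 9.81 min for Hnrnpd-210 and 7.07 min for Hnrnpc-202. The processing half-lives of the leading isoforms lay between 2.18 min (Hnrnpl-204) and 6.38 min (Hnrnpdl-207), a narrower range than their half-lives in this fit. The median half-life of 25.02 min became 4.98 min when the closest approach was sought over both variables and 46.2 min when the second library was read as total RNA. The order changed too: Hnrnpl-204 was 12.2 min in the first and 128 min, the longest, in the last. The half-lives are thus not compared between genes. As a ratio of highest to lowest, the narrower range of processing half-lives did not hold in these settings either. Over both variables they ran from 1.55 to 6.38 min, where half-lives ran from 3.50 to 13.7 min. With the second library read as total RNA they ran from 0.29 to 7.02 min, where half-lives ran from 12.4 to 128 min.

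**Figure D5:**
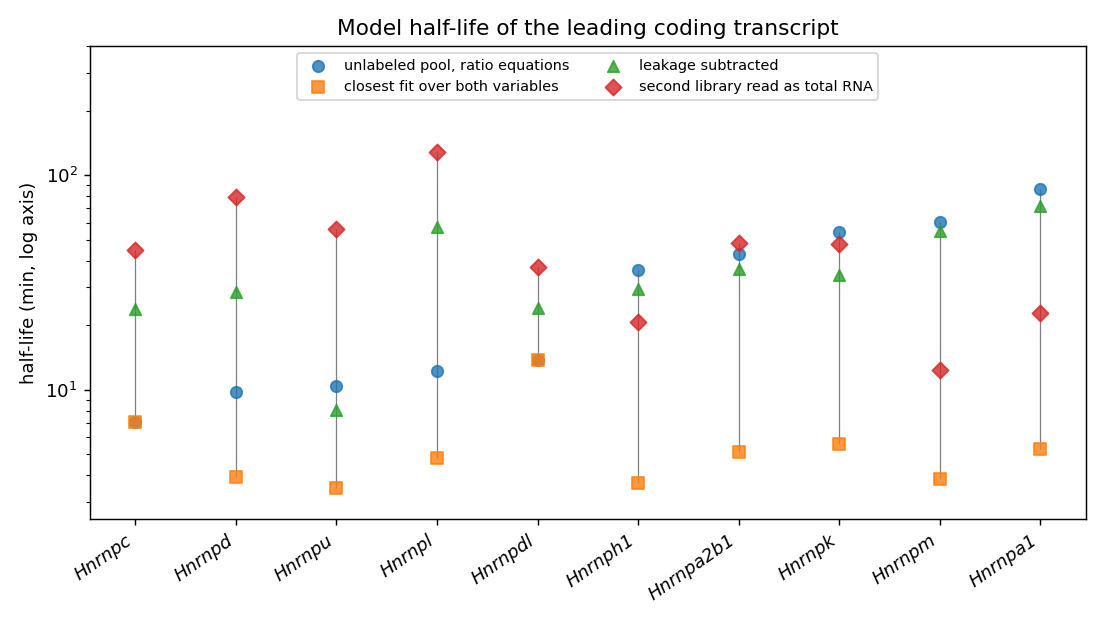
Half-life in min (log axis) of the leading coding transcript of each hnRNP gene under 4 settings: the ratio equations, the closest fit over both variables, subtraction of leakage of unlabeled RNA into the labeled pool, and the second library read as total RNA. Vertical lines join the settings of a gene, which span from 4.8 to 128 min in Hnrnpl.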

How the data were processed

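The members and lists were chosen with earlier results of these data known. Per the labels and the study's methods, the authors removed ribosomal reads, aligned the remainder with STAR 2.5.0 and used RSEM (GRCm38). They deposited 1 score per transcript for exons and 1 for introns, named TPM. Each deposited column sums to 10 times a TPM total, so thresholds refer to the score as deposited. Introns took 15.4% of the labeled and 6.26% of the unlabeled column. All columns were used.

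Values were joined by transcript identifier to GENCODE M21, in which 11063 of the 121429 transcripts were not found. The study names an Ensembl annotation as its reference, and the part of this difference in the missing transcripts was not tested. Ratios used no pseudocount. Gene and biotype backgrounds used a mean exon value above 1, and a difference was counted at a fold of 2. As each pool had 1 library, nothing was tested. Named transcripts were the leading isoform of each gene and biotype, the 3 highest and 3 lowest ratios with a mean exon value of at least 10, and isoforms that sequence or position singled out, which were chosen after their values were seen. Rates followed the study's ratio equations on a grid of 4000 points for 10 min of labeling. The solver was tested on simulated rates without noise, for which an exact solution exists. The closest approach, used where no exact solution existed, was not tested on such pairs. The share of exon bases in reference introns was defined after values had been seen. Leakage was set at 0.142 times the unlabeled value, the 1st percentile of the coding exon ratio. The scripts ran on Python 3.11.15 with pandas 2.3.3 and numpy 2.4.6, and figures were drawn with matplotlib 3.10.9.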

Additional observations from a re-analysis of the deposited data

How the results depend on the processing

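No paired analysis was possible because each pool was a single library, so there was no spread and no test with which to fit a replicate block. A value was called moved where it changed by over 1.5 times. With coding transcripts only, exon rows alone as the scale (which shifts every log2 ratio by 0.15), leakage subtracted or a pseudocount of 1, none of the 10 gene ratios moved by that much in any of the 4 settings, but calls and signs near a limit changed. Of the 10 genes, 3 were at least 2-fold lower in labeled RNA, 1 with exon rows alone (Hnrnpl -0.99, Hnrnpk -0.98) and 5 with leakage subtracted (Hnrnpu -1.21, Hnrnpc -1.03). Hnrnpa2b1 turned from 0.05 to -0.17 with leakage and -0.01 with coding transcripts only, and Hnrnpm from -0.09 to 0.06 with exon rows alone. Leakage lowered the median gene ratio the most, to -0.97. Of the retained intron isoforms, those with an unlabeled intron value of 0 entered with a pseudocount of 0.1, and the median unlabeled intron to exon ratio fell to 0.0212. With only the leading isoform of each biotype the median within-gene difference was 0.03 for retained intron isoforms and -0.08 for processed transcripts. The latter median changed sign. For nonsense-mediated decay isoforms the difference changed sign in Hnrnpd, Hnrnpdl, Hnrnpk and Hnrnpu. In Hnrnpd, Hnrnpdl and Hnrnpk the leading coding isoform it was set against is annotated as incomplete. Chosen after seeing the data, a limit of 60% of exon bases in reference introns left 11 of 11 isoforms above their reference, a limit of 40% gave 23 of 25, and a reference picked by support level 18 of 18. The median half-life was 4.98 min with the closest fit over both variables, 46.2 min with the second library read as total RNA, and 12.97 min for the complete coding transcript, an alternative also added afterwards, while the median processing half-life was 1.73 min and 1.33 min under the first and second of these. The other alternatives left these medians within 1.5 times. The half-lives of single genes moved more often: with leakage subtracted they were 23.8 min for Hnrnpc, 28.7 min for Hnrnpd, 24.1 min for Hnrnpdl, 34.1 min for Hnrnpk and 57.04 min for Hnrnpl, and 39 values of single genes moved in all. The cause of these changes was not tested. The unknown depth and the single library limit every ratio.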

Other observations

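Genes outside the hnRNP lists were ranked by how near their leading coding transcript lay to the median of the 10 members in 4 log2 measures: mean exon value, labeled to unlabeled exon ratio, and intron to exon ratio in each library. Of 8815 genes compared, the nearest were Fbxo22, which encodes a ubiquitin ligase subunit (444 labeled, 801 unlabeled, distance 0.26), Ccnb1, which encodes cyclin B1 (416 and 697, 0.36), Rbpms, which encodes an RNA-binding protein (447 and 649, 0.46), Ssb, which encodes the La protein (589 and 1126, 0.47), and Hprt, which encodes a purine salvage enzyme (430.01 and 737, 0.53). The members were spread widely around their own median: the nearest, Hnrnph1, lay at 0.92 and the farthest, Hnrnpdl, at 3.33, and 36 genes outside the 10 were at least as near as Hnrnph1. The likeness is over 2 libraries and says nothing of shared function.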
